A study of Mus musculus with 8 samples.

Results

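The genes described here are 10 integrin subunits of epithelium and mesenchyme: Itga1, Itga2, Itga3, Itga5, Itga6, Itga8, Itga9, Itgav, Itgb1 and Itgb4. They were found by matching the accession of each probe that was not a control to RefSeq gene symbols, which gave 13 probes. All 10 genes were kept by the filter on dim probes, among 33619 genes and unnamed features tested. Their signals came from mesonephric tubules, the tubules of a transient embryonic kidney, microdissected from stained frozen sections of mouse embryos of strain C57/BL6. Total RNA was labelled with Cy3 and hybridised to 1-colour Agilent arrays, 5 for wild-type embryos, which the study describes as senescent, and 3 for p21-/- embryos, described as non-senescent. p21, the product of Cdkn1a, is a cyclin-dependent kinase inhibitor, and the study asks what its loss changes in tubules at the time of this senescence. The labels name no further allele, agent or treatment, no embryonic stage, and do not tie any array to an embryo of its own. The p-values therefore measure the spread between these samples alone, which may be technical. The group of 3 is called the labelled nulls below.

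Integrins are receptors built of 1 alpha and 1 beta subunit that span the cell membrane and bind extracellular matrix outside and talin and kindlin inside. The beta 1 subunit, encoded by Itgb1, pairs with most alpha subunits named here, beta 4 only with alpha 6, and alpha v also with several other beta chains. Alpha 1 and alpha 2 receptors bind collagens, alpha 3 and alpha 6 receptors bind laminins of basement membrane, alpha 5, alpha 8 and alpha v receptors bind the RGD tripeptide of fibronectin, nephronectin and vitronectin, and alpha 9 binds tenascin C, osteopontin and VCAM1. In kidney development alpha 8 beta 1 on mesenchyme meets nephronectin from the duct, and alpha 3 beta 1 serves branching and the glomerular basement membrane.

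No member passed the test between the groups. With limma and Benjamini-Hochberg adjustment, 0 of 10 had an adjusted p under 0.05, against 0 of 33619 over the whole table (0%), and 0 of 10 had an unadjusted p under 0.05, against 10.1%. For none of the 10 were the 2 groups separate in every array, against 6.89% of all genes and features (4.43% higher and 2.47% lower in the group of 3). In the labelled nulls, 5 members had the higher mean (Itga2, Itgb1, Itgb4, Itga3 and Itga5) and 5 the lower mean (Itga1, Itga8, Itgav, Itga9 and Itga6). The median of their log2 differences was 0.0347, beside -0.0303 over all genes and features, and it took either sign under the other settings tried. Adjusted p-values of the members lay between 0.651 and 0.941.

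The samples of this series differ from one another in ways that touch these values. Cdkn1a itself showed little drop in the p21-/- arrays: its brighter probe lay between 0.44 and 2.52 in wild type and between 0.96 and 2.11 in the other group, its log2 difference was -0.19 (limma adjusted p = 0.950) and that of the other probe -0.24, and where the probes lie with respect to the deletion is not known here. This is why the group is named by its label, and each direction rests on that label. Of 11 markers of mesonephric tubule and duct, 10 were measured, and all 10 were above background on at least 4 of 5 wild-type arrays. Among them 1 was higher and 9 lower in the labelled nulls, where Ret was above background on 0 of 3 arrays. Their mean was -2.02 to 0.17 in wild type and -2.53 to -1.88 in the labelled nulls. The 12 epithelial markers were split 6 higher and 6 lower, with means over the 11 measured on every array of -2.03 to 0.91 and -1.57 to 0.44, and of 12 mesenchymal markers 2 were higher and 10 lower, with means of 0.28 to 2.01 and 0.27 to 0.73. Liver markers (10 of 10 higher, -0.62 to 2.91 against 2.89 to 4.29), erythroid markers (9 of 10 higher, 0.35 to 3.11 against 3.25 to 4.12) and macrophage markers (7 of 9 higher, -0.42 to 1.22 against 1.05 to 1.65) stood higher in the labelled nulls. The part of these cell types in the values of the integrins was not tested. In such bulk samples fewer cells of a type cannot be told apart from less RNA per cell. Wild-type replicate 3 held the lowest value of 5 of the 10 members, against 18.0% of all genes and features. The arrays lay on 3 slides that each held both groups: slide 1 carried wild-type replicates 1, 2 and 3 with labelled-null replicate 1, slide 2 wild-type replicate 4 with labelled-null replicate 2, and slide 3 wild-type replicate 5 with labelled-null replicate 3. Every value below is a log2 signal minus the 75th percentile of its array, a scale on which levels of different probes cannot be compared, and a difference is labelled null minus wild type.

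**Figure D1:**
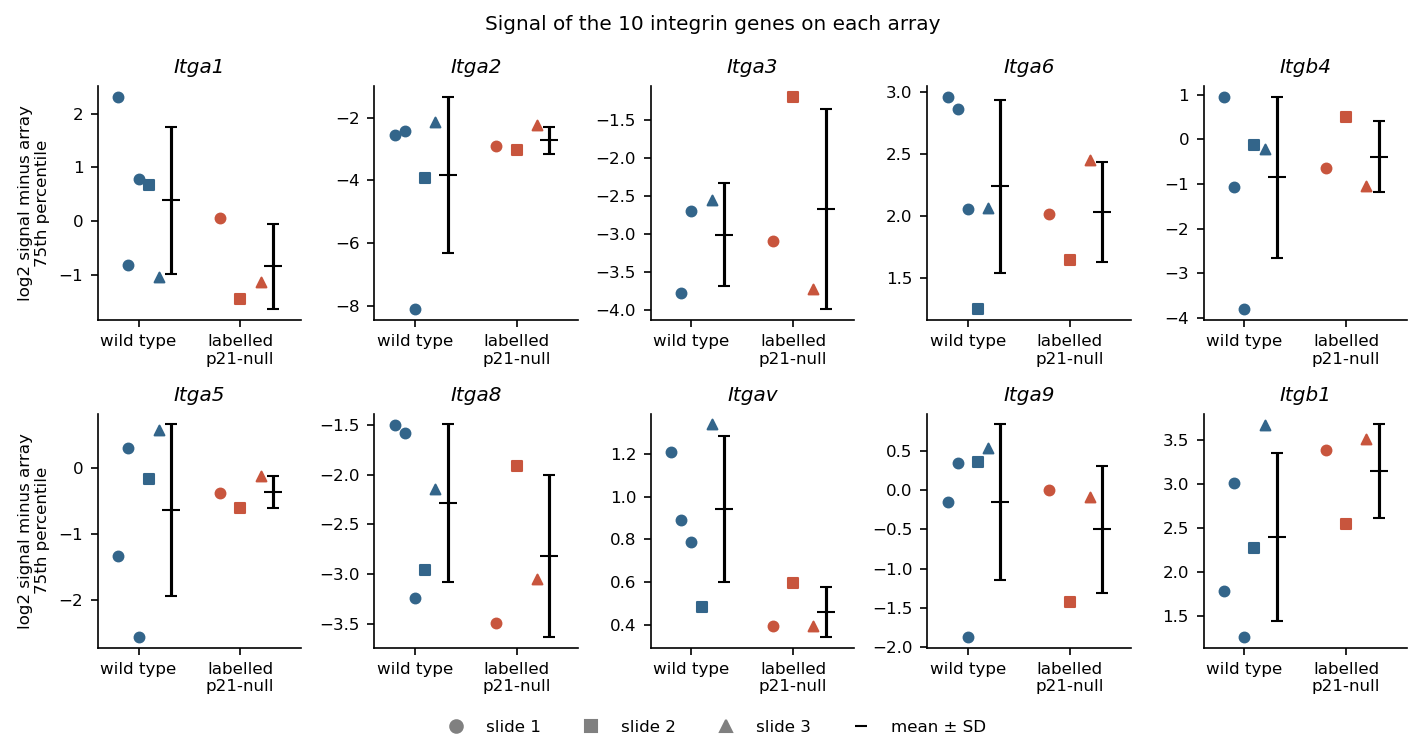
Log2 signal minus the array's 75th percentile (y axis) of the 10 integrin genes on each wild-type (blue) and labelled p21-null (red) array, with marker shape for the slide and a bar for the mean ± SD. The groups overlap for each gene, and wild-type replicate 3 lies far below the others for Itga2 (-8.11) and Itgb4 (-3.81).

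Itgb1, the shared beta subunit, read, in order of replicate number, 1.78, 3.01, 1.27, 2.27 and 3.67 in wild type and 3.39, 2.54 and 3.51 in the labelled nulls. All 3 labelled nulls lay above the wild-type median of 2.27, and wild-type replicate 5 was the highest of the 8. Wild type averaged 2.40 ± 0.96 (SD, n = 5) and the labelled nulls 3.15 ± 0.53 (SD, n = 3), giving a difference of 0.75 (standard error, SE, of 0.55, 95% interval from -0.50 to 2.0, limma adjusted p = 0.733). An exact permutation test over the 56 splits of the arrays, two-sided and with a smallest possible p of 0.0179, gave p = 0.286. Within slides 1, 2 and 3 the difference was 1.37, 0.27 and -0.16. Its second probe differed by 0.51, or 0.20 without wild-type replicate 3.

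Each alpha subunit that pairs with beta 1 was set against Itgb1 over the arrays, with Itga6 against Itgb4 and Itga8 against the nephronectin gene Npnt, 10 pairs in all. Itga5 followed Itgb1 most closely: r = 0.867 over 8 arrays (permutation p = 0.0033, Benjamini-Hochberg adjusted p = 0.033) and rho = 0.833 (permutation p = 0.0154, adjusted p = 0.109). Without wild-type replicates 1 and 3, the arrays farthest from the median of Itgb1, r was 0.495, so much of the relation rests on those 2 arrays, in which both genes were low. It was 0.868 when arrays were centred within slides and 0.908 when they were centred within groups. The relation of Itga2 to Itgb1 did not pass after adjustment (r = 0.744, permutation p = 0.0160, adjusted p = 0.080; rho = 0.810, permutation p = 0.0218, adjusted p = 0.109), with r = 0.862 without the same 2 arrays and 0.707 within slides. Nor did that of Itga1, which was negative (r = -0.699, permutation p = 0.0521, adjusted p = 0.174; rho = -0.690, permutation p = 0.0694, adjusted p = 0.231), and r was -0.368 without those 2 arrays and -0.614 within slides. For Itga6 and its partner Itgb4 no relation passed the test (r = 0.0204, permutation p = 0.965; rho = -0.119, permutation p = 0.793), and r was -0.794 without the 2 arrays farthest from the median of Itgb4 and 0.565 within slides. The same held for Itga8 and Npnt (r = 0.0257, permutation p = 0.953; rho = 0.143, permutation p = 0.752), with r = -0.220 without the 2 farthest and -0.0749 within slides. In both pairs the adjusted p was 0.965 for r and 0.840 for rho. Of the 10 pairs, that of Itga5 and Itgb1 by Pearson's r was the 1 with an adjusted p under 0.05.

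The promoters of Itga5 and Itgb1, the pair that passed this test, are shown with that of Itga1, whose negative correlation with Itgb1 did not pass. They are the 250 bases before the start that the RefSeq promoter table uses, which for these 3 genes is the start of the gene, 5′ to 3′ on the strand of the gene in build GRCm38.p6, and capitals mark GGGCGG, the core of a GC box, or its complement CCGCCC.
Itga5, chr15:103366792-103367041, minus strand: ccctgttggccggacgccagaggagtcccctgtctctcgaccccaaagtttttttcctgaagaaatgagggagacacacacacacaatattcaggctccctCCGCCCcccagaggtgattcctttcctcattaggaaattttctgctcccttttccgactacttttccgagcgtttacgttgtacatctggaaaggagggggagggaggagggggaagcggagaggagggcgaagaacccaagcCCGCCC
Itgb1, chr8:128685404-128685653, plus strand: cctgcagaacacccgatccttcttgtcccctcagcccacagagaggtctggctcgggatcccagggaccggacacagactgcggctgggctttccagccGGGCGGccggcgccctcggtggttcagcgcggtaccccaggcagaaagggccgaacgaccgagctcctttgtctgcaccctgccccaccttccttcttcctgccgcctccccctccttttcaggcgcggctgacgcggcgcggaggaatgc
Itga1, chr13:115101965-115102214, minus strand: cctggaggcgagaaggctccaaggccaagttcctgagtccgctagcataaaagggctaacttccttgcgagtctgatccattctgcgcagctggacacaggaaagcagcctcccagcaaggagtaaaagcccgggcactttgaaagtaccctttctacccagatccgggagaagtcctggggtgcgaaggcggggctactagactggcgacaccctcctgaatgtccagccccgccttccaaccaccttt
Itga5 held 2 matches, Itgb1 1 and Itga1 0. Itga2, whose r with Itgb1 was 0.744, held 0. The windows of Itga3, whose r with Itgb1 was -0.320 on 6 arrays, held 1 and 3. Those of Itga8, Itga9 and Itgav held 0. Whether such matches go with the correlations was not tested. The table gave 9 windows of this length for 8 of the 10 members, and those of Itga3, Itga8, Itga9 and Itgav lay wholly or partly inside the span of the gene. Of the 9, 4 held GGGCGG on either strand, against 32.7% of 32851 windows of the same length. The TATA box TATAAA, the AP-1 site TGANTCA and the E-box CACGTG, searched on both strands, were in 0 of the 9, against 12.4%, 6.75% and 6.02% of all windows. The median share of G and C over all windows was 52.4%, and it was 55.6% for Itga5, 68.0% for Itgb1 and 57.6% for Itga1.

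The differences of the collagen receptors had opposite signs. Itga1, whose product binds basement membrane collagen IV and is found on mesenchyme and smooth muscle, had the largest difference of the 10 members in size with all arrays in. It stood at 2.31, -0.82, 0.78, 0.68 and -1.03 in wild type and at 0.06, -1.45 and -1.13 in the labelled nulls. All 3 labelled nulls lay below the wild-type median of 0.68, but wild-type replicates 2 and 5 lay among them. Wild type averaged 0.39 ± 1.36 (SD, n = 5) and the labelled nulls -0.84 ± 0.79 (SD, n = 3), giving a difference of -1.23 (SE 0.75, 95% interval from -2.93 to 0.48, limma adjusted p = 0.657). The exact permutation test gave p = 0.179. Within slides 1, 2 and 3 the difference was -0.70, -2.13 and -0.10. Without wild-type replicate 1 it was -0.74, smaller in size than the 1.42 of Itga2 and the 0.91 of Itgb4, and with the replicate number as a block it was -1.60, beside 1.63 for Itga2. A second, dimmer probe of Itga1 differed by -0.89, in the same direction.

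Itga2, which pairs with beta 1 on epithelium and platelets, was dominated by 1 array. Its wild-type values were -2.54, -2.42, -8.11, -3.91 and -2.12, against -2.90, -3.04 and -2.23 in the labelled nulls. Wild-type replicate 3 was the only array on which the probe was not well above background, and the other 7 arrays lay between -3.91 and -2.12. The difference was 1.10 (SE 1.25, limma adjusted p = 0.847; exact permutation p = 0.696), and without wild-type replicate 3 it was 0.0235. By the RefSeq table Itga1 and Itga2 are neighbours on chromosome 13.

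Of the collagen genes that encode their ligands, 3 of 7 were higher and 4 lower, 0 at an unadjusted p under 0.05, with a median difference of -0.08. Col4a1 and Col4a2, the chains of basement membrane collagen IV, differed by -0.71 and -0.75 (limma adjusted p = 0.562 and 0.609). Their levels in the labelled nulls, 1.40 to 2.08 and 0.82 to 1.01, lay in or below the lower part of the wild-type ranges of 1.76 to 2.90 and 0.78 to 2.31. Col3a1 and Col1a2, fibrillar collagens of mesenchyme, differed by -0.58 and 0.36.

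The laminin receptors showed no shared direction. Itga6, the alpha subunit of basal epithelial cells, was among the steadier members. It stood at 2.96, 2.86, 2.06, 1.25 and 2.07 in wild type and at 2.02, 1.65 and 2.45 in the labelled nulls, whose range lies wholly inside that of wild type. Wild type averaged 2.24 ± 0.70 (SD, n = 5) and the labelled nulls 2.04 ± 0.40 (SD, n = 3), giving a difference of -0.20 (95% interval from -1.19 to 0.79, limma adjusted p = 0.931). Within slides 1, 2 and 3 it was -0.61, 0.39 and 0.38.

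Itgb4, the partner of alpha 6 in hemidesmosomes, the junctions that anchor keratin filaments to basement membrane, varied over far more. Its wild-type values were 0.95, -1.06, -3.81, -0.13 and -0.22, and those of the labelled nulls -0.64, 0.49 and -1.04. Its residual SD was larger than that of 92.9% of all genes and features, and wild-type replicate 3 was the lowest array again. The difference was 0.46 (SE 0.95, limma adjusted p = 0.928), and it turned to -0.28 without wild-type replicate 3.

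Itga3, which joins beta 1 to laminins of epithelial basement membrane, was measured on 6 arrays, because the scanner software marked its spots as outliers in wild-type replicates 1 and 4 and these were left out. It read -3.78, -2.69 and -2.54 in wild-type replicates 2, 3 and 5 and -3.09, -1.19 and -3.72 in the labelled nulls. Labelled-null replicate 2 stood above all the others, and the remaining 5 arrays of both groups were intermixed. The difference of 0.34 (SE 0.71, limma adjusted p = 0.930) changed sign with the setting. It was -0.89 with the marked spots kept, a setting chosen after the data were seen, -0.42 with slide as a block, -0.39 in the deposited log2 table, -0.0499 without wild-type replicate 2 and -0.40 without labelled-null replicate 2.

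Of the 10 laminin chain genes that encode their ligands, 1 was higher and 9 were lower in the labelled nulls. Their median difference was -0.70, with 0 at an unadjusted p under 0.05. The labelled nulls were split: the mean of the 10 genes was -0.44, 0.75 and -0.81 there, against -0.29 to 1.27 in wild type. Over all genes and features 47.7% had a positive difference. Lamb1, the beta 1 chain of most embryonic laminins, stood at 3.30, 2.59, 2.30, 2.24 and 2.20 in wild type and at 1.73, 2.30 and 0.92 in the labelled nulls, where replicate 2 lay inside the wild-type range. It differed by -0.88 (SE 0.40, limma adjusted p = 0.514). Lama2, Lamb2 and Lama4 differed by -0.72, -0.72 and -0.77, each with overlapping groups.

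All 6 genes of the hemidesmosome list were lower on average, with a median of -0.50 and 0 at an unadjusted p under 0.05, but the labelled nulls were split. Krt5, a keratin of basal epithelial cells, read 4.57, 1.88, -0.47, 1.43 and 2.65 in wild type and -0.99, 4.94 and -3.19 in the labelled nulls. Krt14, its usual partner, read 4.32, 2.43, -0.12, 1.71 and 1.95 against 0.16, 4.08 and -0.33. Within their groups both keratins, like Itgb4, were highest in wild-type replicate 1 and labelled-null replicate 2. The mean of the 11 epithelial markers was highest there too. Plec and Dst, the plakins that link beta 4 and keratin, differed by -0.51 and -0.16.

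The RGD receptors include the member with the narrowest spread and the smallest unadjusted p. Itgav, whose product pairs with several beta chains and can release active TGF-β from its latent complex, read 1.21, 0.89, 0.79, 0.49 and 1.34 in wild type and 0.39, 0.59 and 0.39 in the labelled nulls. The 3 labelled nulls lay below 4 of 5 wild-type arrays, and only wild-type replicate 4 reached into their range. Wild type averaged 0.94 ± 0.34 (SD, n = 5) and the labelled nulls 0.46 ± 0.12 (SD, n = 3), giving a difference of -0.48 (SE 0.29, 95% interval from -1.14 to 0.18, limma unadjusted p = 0.133, adjusted p = 0.651). Its exact permutation p of 0.0714 was the smallest of the 10 members. The residual SD of Itgav was larger than that of only 8.28% of all genes and features. Within slides 1 and 3 the difference was -0.57 and -0.95, and within slide 2 it was 0.11.

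The values of a second probe of Itgav were unlike those of the first (r = -0.0453 over the 8 arrays, permutation p = 0.924; Spearman's rho = -0.310, permutation p = 0.462). It read -1.84, -1.36, -8.00, -1.26 and -1.27 in wild type and -0.61, -2.67 and -1.75 in the labelled nulls, with wild-type replicate 3 not well above background. Its difference was 1.07, or -0.24 without wild-type replicate 3, and the mean of both probes differed by 0.29. The lower level of Itgav in the labelled nulls therefore rests on 1 of its 2 probes. The paired probes of Itga1 and Itgb1 correlated at 0.784 and 0.720 (permutation p = 0.0204 and 0.0226; Benjamini-Hochberg adjusted p = 0.0339 for each over the 3 probe pairs), with rank correlations of 0.643 and 0.381 (permutation p = 0.0962 and 0.360; adjusted p = 0.289 and 0.462). Without the 2 arrays farthest from the median, wild-type replicates 1 and 3, these values of r were 0.726 and 0.293. For arrays centred within slides they were 0.892 and 0.815. Much of the relation for Itgb1 thus rests on the arrays left out. Of these, replicate 3 was lowest on both its probes, at 1.27 and -1.73. Replicate 1, at -0.23 on the second probe, lay among the other arrays there.

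Itga5, the fibronectin receptor of mesenchyme and endothelium, spread widely in wild type and little in the other group. It read -1.33, 0.32, -2.55, -0.17 and 0.58 in wild type and -0.37, -0.59 and -0.11 in the labelled nulls. These 3 arrays lay inside the wild-type range. Wild type averaged -0.63 ± 1.30 (SD, n = 5) and the labelled nulls -0.36 ± 0.24 (SD, n = 3). The difference of 0.27 (SE 0.68, limma adjusted p = 0.941) turned to -0.21 without wild-type replicate 3.

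Itga8, the receptor subunit for nephronectin on mesenchyme around the duct, read -1.50, -1.58, -3.24, -2.96 and -2.15 in wild type and -3.49, -1.92 and -3.05 in the labelled nulls. Labelled-null replicate 1 was the lowest of the 8 arrays, but labelled-null replicates 2 and 3 lay among the wild-type values. Wild type averaged -2.29 ± 0.79 (SD, n = 5) and the labelled nulls -2.82 ± 0.81 (SD, n = 3), giving a difference of -0.53 with a 95% interval from -1.74 to 0.67 (limma adjusted p = 0.818; exact permutation p = 0.321). Within slides 1, 2 and 3 it was -1.39, 1.04 and -0.90. It was -0.20 without labelled-null replicate 1 and -0.99 without labelled-null replicate 2.

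Of 11 genes for ligands of these receptors 5 were higher and 6 lower, 2 and 1 of them at an unadjusted p under 0.05, against 6.2% and 3.91% of all genes and features in those directions. Egfl6, a basement membrane protein with an RGD motif that binds alpha 8 beta 1, read 2.22, 1.86, 0.46, 1.11 and 1.07 in wild type and -0.80, 0.22 and -1.20 in the labelled nulls. Every labelled null lay below every wild-type array, as for 2.47% of all genes and features in that direction. The difference was -1.94 (SE 0.49), or 3.83-fold lower, with a limma adjusted p of 0.288, and it was -2.31, -0.88 and -2.27 within the slides. Vtn, vitronectin, which the liver secretes, was 9.52-fold higher (limma adjusted p = 0.345), and Tgfb1, whose latent complex is a ligand of alpha v integrins, 3.13-fold higher (adjusted p = 0.461). For Vtn wild-type replicate 5, at 1.23, lay above labelled-null replicate 2, at 0.56. Vtn and Tgfb1 were higher in the group whose liver and macrophage means were higher, and the part of those cells was not tested. Tgfb3 differed by -1.13 (adjusted p = 0.494).

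The genes around alpha 8 and nephronectin were mostly lower. Of 9, which include the Fras and Frem proteins that hold nephronectin at the basement membrane and the Gdnf and Ret genes of duct outgrowth, 1 was higher and 8 lower, with a median of -0.83. Over all genes and features 47.7% had a positive difference. Of the 8, 2 had an unadjusted p under 0.05, against 3.91% of all genes and features in that direction. Grip1, which carries Fras1 to the cell surface, read 0.08, -0.24, 1.37, 0.18 and 0.17 in wild type and -0.55, -0.76 and -1.46 in the labelled nulls. Its groups did not overlap, as for 2.47% of all genes and features in that direction, and it differed by -1.24 (SE 0.42, limma adjusted p = 0.374). Frem1 differed by -1.11 (adjusted p = 0.481). For Ret, well above background on no labelled null, those arrays were set at the higher of their own value and the dimmest probe above background. So set, Ret averaged 2.26-fold lower. This is an estimate and not a bound, since the dimmest such probe is no upper limit for Ret. With the values as measured, the 95% interval of the log2 difference of Ret ran from -5.25 to 0.11. It did not pass the test (limma adjusted p = 0.517), and the groups overlapped: wild-type replicate 2, at -8.09, was as low as labelled-null replicates 1 and 3, at -8.27 and -8.07, and labelled-null replicate 2, at -5.42, was close to wild-type replicate 3, at -5.15. Gdnf, which exceeded background on 4 wild-type arrays and 2 labelled nulls, differed by -1.44 (adjusted p = 0.729). The mean of the tubule and duct markers, which share Ret and Gata3 with this list, was lower in the same group, and its part was not tested.

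Itga9, whose product with beta 1 binds tenascin C, EMILIN1 and VCAM1 and is needed for lymphatic valves, read -0.16, 0.35, -1.87, 0.36 and 0.54 in wild type and 0.01, -1.43 and -0.08 in the labelled nulls. Wild-type replicate 3 and labelled-null replicate 2 lay below all the others, and the other 6 arrays lay between -0.16 and 0.54. The difference was -0.35 (SE 0.61, limma adjusted p = 0.913), and it turned to 0.12 without labelled-null replicate 2. Of 6 ligand genes of alpha 9, 4 were higher and 2 lower, with 0 at an unadjusted p under 0.05. Vcam1 differed by 0.90 (adjusted p = 0.558), Emilin1 by 0.33 and Fn1, fibronectin, by 0.23. Spp1, osteopontin, read -0.38, 1.48, -1.55, 3.11 and -3.58 in wild type and 3.98, -5.41 and 3.20 in the labelled nulls. It was above background on every array, and labelled-null replicate 2 lay below all 7 others.

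**Figure D2:**
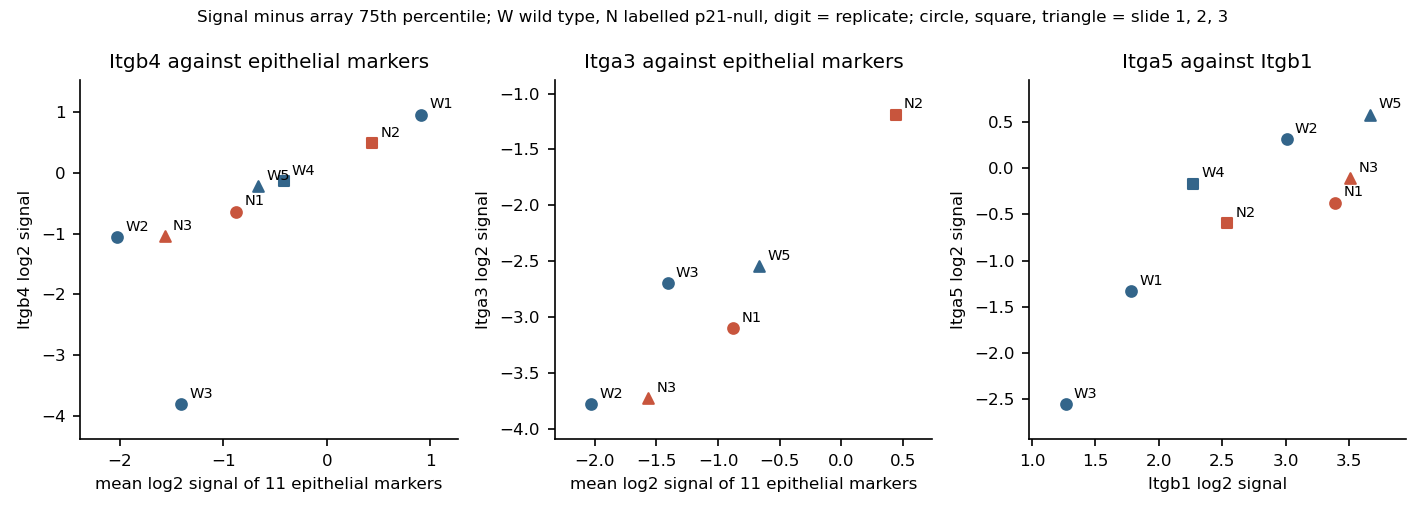
Log2 signals relative to the array's 75th percentile: Itgb4 (left) and Itga3 (middle) against the mean of 11 epithelial markers, and Itga5 against Itgb1 (right), 1 point per array, labelled by group and replicate, with shape for the slide. Wild-type replicate 3 falls below the line of the other arrays for Itgb4, and wild-type replicates 1 and 3 mark the low end of both Itga5 and Itgb1.

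Each member was also set against the mean of the epithelial and of the mesenchymal markers, 20 relations in all, a comparison chosen after the data were seen. Itgb4 followed the epithelial mean by rank (rho = 0.929, permutation p = 0.00223, Benjamini-Hochberg adjusted p = 0.0446). Its Pearson r was 0.708 (permutation p = 0.0405, adjusted p = 0.257), 0.717 without the 2 arrays farthest from the median and 0.690 within slides. The relation of Itga3 to the same mean, on its 6 arrays, did not pass after adjustment (r = 0.932, permutation p = 0.0125, adjusted p = 0.250; rho = 0.943, permutation p = 0.0167, adjusted p = 0.111), and r was 0.618 without the 2 farthest and 0.803 within slides. That of Itga9 to the mesenchymal mean did not pass either (rho = 0.857, permutation p = 0.0107, adjusted p = 0.107; r = 0.696, permutation p = 0.0487, adjusted p = 0.257), with r = 0.669 without the 2 farthest and 0.655 within slides. Of the 20 relations 1 had an adjusted p under 0.05 by rank, that of Itgb4, and 0 had one by Pearson's r.

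**Figure D3:**
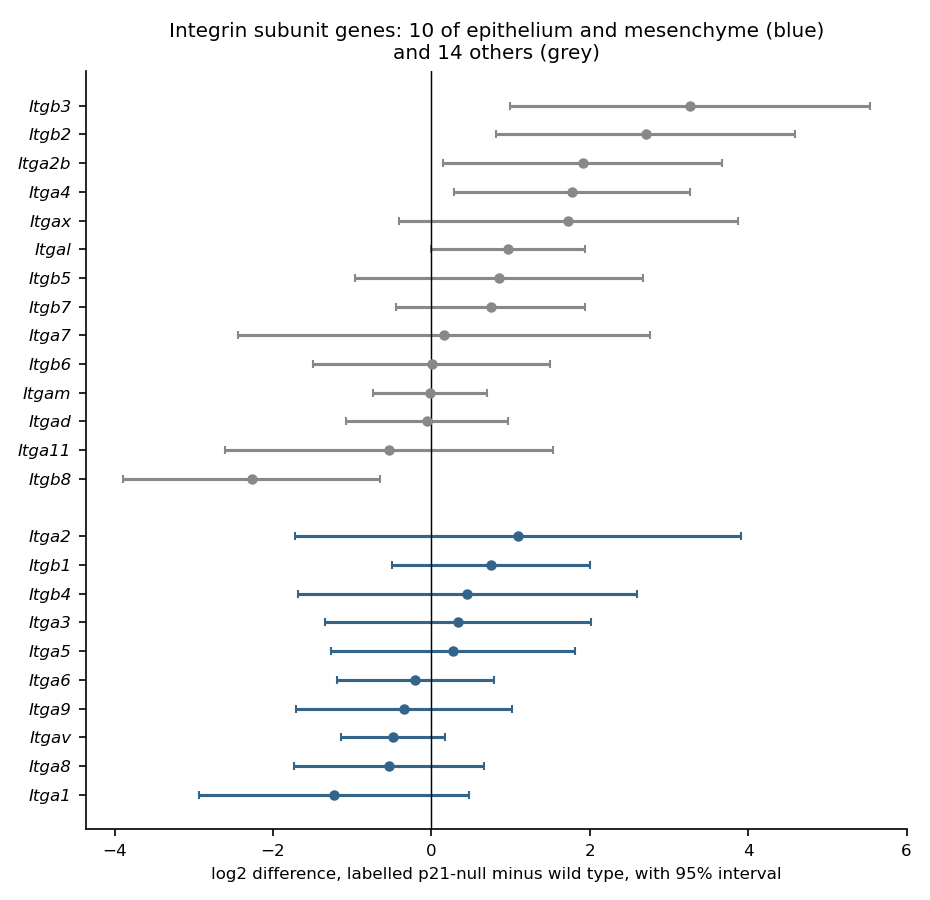
Log2 difference, labelled p21-null minus wild type, with its 95% interval (x axis) for the 14 other integrin genes measured (grey) and the 10 of epithelium and mesenchyme (blue). All 10 blue intervals include 0, while those of Itgb3, Itgb2, Itga2b and Itga4 lie above 0 and that of Itgb8 below it.

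The other subunits of the family are set beside these 10 genes because several are known from blood cells. Of 16, 14 were measured (Itga10 and Itgae were not), 10 higher and 4 lower in the labelled nulls, with a median difference of 0.80. At an unadjusted p under 0.05 there were 4 higher and 1 lower, against 6.2% and 3.91% of all genes and features, and 0 passed after adjustment. Itgb3, the beta subunit of the platelet fibrinogen receptor, was 9.60-fold higher, Itgb2, the beta subunit of leukocytes, 6.52-fold, Itga2b, the platelet partner of Itgb3, 3.76-fold, and Itga4, found on blood precursors, 3.43-fold, with limma adjusted p-values of 0.335, 0.336, 0.457 and 0.406. Itgb3 read -1.82, 0.59, -0.91, 0.57 and 2.19 in wild type and 3.39, 1.58 and 5.20 in the labelled nulls, where replicate 2 lay below wild-type replicate 5. Its log2 difference was 3.26 on this probe, 1.81 on a second probe and 2.54 for the mean of both. The sizes rested in part on labelled-null replicate 3, without which the log2 difference fell from 3.26 to 2.36 for Itgb3, from 2.70 to 2.02 for Itgb2 and from 1.91 to 0.95 for Itga2b. Without labelled-null replicate 2 they were 4.17, 3.66 and 2.76. Itgb2 read -1.42, -1.34, -1.15, -0.23 and 1.22 in wild type and 2.67, 0.20 and 3.49 in the labelled nulls, where replicate 2 lay below wild-type replicate 5. Without labelled-null replicate 3 the count at an unadjusted p under 0.05 was 0. Megakaryocyte markers were higher for 5 of 6 genes, with means of -3.01 to 0.12 in wild type and -0.92 to 1.89 in the labelled nulls, and the macrophage means are given above. Their part in these values was not tested. Whether this group of subunits differs from the 10 members was not tested either.

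Itgb8, an epithelial and neural subunit that pairs with alpha v and also releases active TGF-β, was the 1 integrin lower at an unadjusted p under 0.05. It read -1.88, -3.24, -0.32, -0.41 and -2.18 in wild type and -3.38, -3.36 and -4.90 in the labelled nulls. The groups did not overlap, as for 2.47% of all genes and features in that direction, but wild-type replicate 2, at -3.24, came close to the labelled nulls. The difference was -2.27 (SE 0.72), or 4.82-fold lower, with a limma adjusted p of 0.345, and it was -1.56, -2.94 and -2.72 within the slides. Neural markers, 8 of 8 of them lower, had means of -2.78 to -0.66 in wild type and -3.87 to -2.66 in the labelled nulls, and the tubule and duct means were lower as well. Their part in the level of Itgb8 was not tested. Alpha v also pairs with the products of Itgb1 and Itgb3, whose differences of 0.75 and 3.26 are given above, and of Itgb5 and Itgb6. Itgb5 differed by 0.85, and the probes of Itgb6 by 0.01 and, for the dimmer one, -1.09. Among the remaining subunits the probes of Itgal differed by 0.97 and 2.76. The brighter probe stood for the gene and did not pass (limma unadjusted p = 0.051, adjusted p = 0.496). The dimmer one had a limma unadjusted p of 0.00124 in a fit over all probes. It read -5.20 to -2.23 in wild type and -1.09 to -0.47 in the labelled nulls. The probes of Itgam differed by -0.02, 0.34 and -0.05, and Itgb7, Itga11, Itga7 and Itgad differed by 0.75, -0.53, 0.16 and -0.05. Itgax exceeded background on only 1 wild-type array and 2 labelled nulls, the dimmer probe of Itgb6 on 3 and 1, Itgad on 4 and 2 and Itga7 on 4 and 3.

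**Figure D4:**
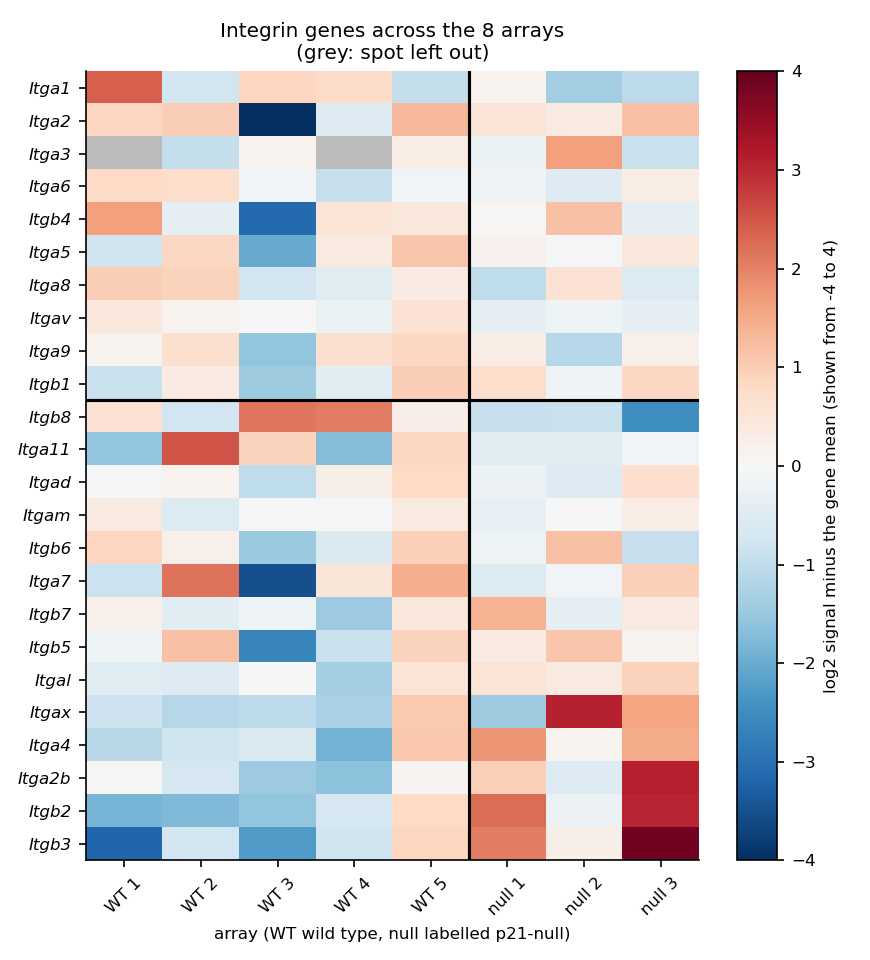
Log2 signal minus the mean of the gene over the arrays (colour, cut at -4 and 4) for the 10 integrin genes above the line and 14 others below it, in 5 wild-type (WT) and 3 labelled p21-null (null) arrays, with grey for the Itga3 spots left out. Itgb2, Itgb3, Itga4 and Itga2b are red mainly in labelled-null replicates 1 and 3, and wild-type replicate 3 is blue for Itga2, Itgb4 and Itga5.

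Inside the cell, integrin tails are joined to actin by talins, kindlins, parvins and their partners, of which 29 of 30 were measured. Of these 10 were higher and 19 lower, with a median difference of -0.30, and 4 were higher and 1 lower at an unadjusted p under 0.05, against 6.2% and 3.91% of all genes and features. The 4 were Fermt3, the kindlin of blood cells, 8.42-fold higher, Parvg, the parvin of blood cells, 5.22-fold, Parvb and Tln1, the main talin, with limma adjusted p-values of 0.303, 0.307, 0.447 and 0.487; Tln1 lay outside the rule for naming genes and was named after its value was seen. Fermt3 read -2.42, -3.46, -3.89, -4.28 and -0.85 in wild type and -0.44, -0.90 and 1.63 in the labelled nulls, where replicate 2 lay just below wild-type replicate 5. All 4 were higher in the group whose macrophage and megakaryocyte means were higher, and the part of those cells was not tested. Of the 29, 1 was higher and 1 lower with no overlap of the groups, against 4.43% and 2.47% of all genes and features. The higher one was Parvg, at most 0.44 in wild type and at least 1.10 in the labelled nulls. The lower one was Dab2, an endocytic adaptor that takes up beta 1 integrins. Dab2 read 2.57, 2.30, 1.5, 2.52 and 2.16 in wild type and 1.08, 1.37 and 0.84 in the labelled nulls. It was 2.16-fold lower (difference -1.11, SE 0.33, limma adjusted p = 0.321), and the difference was -1.04, -1.14 and -1.33 within the slides.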

How the data were processed

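Per the file headers, Agilent Feature Extraction 10.7.3.1 made the scanner files, whose deposited intensity per spot (the processed signal) was corrected for background and slide trends but not normalized between arrays. The authors also deposited a log2 table with 1 value per probe. For it limma is named in the submitters' processing notes, with a background correction not given in the sources used here. Each column had a median of 9.26 and was correlated at 0.999 or more with normexp-corrected, quantile-normalized intensities of the same array, which settles scale and direction.

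From the log2 of the processed intensity each array's 75th percentile was subtracted, taken over its 59305 non-control spots. Outlier-marked spots were left out before averaging the spots of a probe. Accessions were matched without versions to RefSeq (GRCm38.p6), which named 26056 of 55681 probes and left 29625 unnamed. Probes were kept where 3 or more arrays had them well above background (50046), and the probe of highest mean stood for a gene, leaving 33619 genes and features, 18164 of them with a symbol. On each array 82.2% to 89.2% of probes were above background and 0 were saturated, and the number of arrays limits the precision. Pairs of arrays correlated between 0.881 and 0.955.

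Groups (5 wild-type, 3 labelled p21-null arrays) were compared in R 4.3.3 using limma 3.58.1 with no covariate, Benjamini-Hochberg adjustment over the whole table and a threshold of 0.05. Single genes were also compared by exact permutation. Slides were read from the file names. The members and lists were chosen with earlier results of these data known. Genes were named by rule: the members, the other integrins, the 4 measured genes of smallest p in each ligand, partner, hemidesmosome and nephronectin list, and Cdkn1a. Alternatives were quantile normalization, normexp (offset 50) on median spot and background intensities, since the files hold no mean spot signal, no filter or a strict one (signal above background on all 8 arrays), the mean of a gene's probes, slide as a block (fixed, or random), the replicate number as a block, the deposited log2 table, and each array left out. Keeping the outlier spots, relating members to cell type means and the counts of other integrins past the unadjusted threshold were added after the data were seen. RefSeq gave no promoter window for Itga6 and Itgb4.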

Additional observations from a re-analysis of the deposited data

Results flagged for a closer look

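Gaps between the extreme array and its nearest neighbour, as a share of the range of the 5 wild-type arrays, were computed for 48 sets of values, and 5 exceeded the critical value of 0.71. Chance alone gives about 1 in 20. For Itga9 wild-type replicate 3 was lowest, at -1.87 against -0.16 for the next array, with a gap share of 0.713. The same array was lowest on the second probe of Itgav, at -8.00 against -1.84 (gap share 0.913), where it was not well above background. It was lowest again on the second probe of Itgb1, at -1.73 against -0.35 (gap share 0.735). Itgax was highest in wild-type replicate 5, at -5.99 against -7.86 (gap share 0.801), the 1 wild-type array on which it was above background. The mean of 8 neural markers was lowest in wild-type replicate 1, at -2.78 against -0.99 (gap share 0.846).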

How the results depend on the processing

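Over 178 combinations of a member and an alternative setting, the direction of the difference was kept in 168 and reversed in 10, and the smallest adjusted p was 0.383. The reversals were Itgav with the mean of its probes (0.294); Itga3 with the slide block (-0.424), the deposited table (-0.391), outlier spots kept (-0.886), without wild-type replicate 2 (-0.0499) and without labelled-null replicate 2 (-0.403); Itga9 with the replicate block (0.0557) and without labelled-null replicate 2 (0.117); and Itga5 (-0.208) and Itgb4 (-0.282) without wild-type replicate 3. The cause of these reversals was not tested. Over all arrays left out in turn, Itga1 ran from -1.67 to -0.745, Itga2 from 0.0235 to 1.52, Itga6 from -0.450 to -0.00743, Itga8 from -0.985 to -0.195, Itgav from -0.596 to -0.383, Itgb1 from 0.465 to 1.07, Itga3 from -0.403 to 0.862, Itga5 from -0.208 to 0.574, Itga9 from -0.775 to 0.117 and Itgb4 from -0.282 to 0.907. Itga2 and Itga3 were not tested under the strict filter, which asks for signal above background on all 8 arrays. The count of all genes and features past the adjusted threshold was 3 with normexp and 0 to 1 with each array left out, reaching 1 without wild-type replicate 4. At an unadjusted p under 0.05 it was 1746 to 3807 with each array left out, the lowest without labelled-null replicate 3, where the count of other integrins was 0 in a range of 0 to 7. The median difference of all genes was 0.0581 without labelled-null replicate 1.

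With each array left out, the members' median was -0.266 to 0.197, with 0 past the unadjusted threshold in each case, and the medians were 0.526 to 1.05 for the other integrins, -0.337 to -0.00716 for the adhesion partners and -0.512 to -0.0686 for the matrix ligands. The members' median also turned negative with the slide block (-0.232), the deposited table (-0.268), outlier spots kept (-0.275) and the strict filter (-0.275), and was 0.283 with the mean of probes. Same-numbered arrays deviated from their group means at correlations of 0.0645, -0.0841 and -0.0739. So few pairs, the first of them on a shared slide, cannot decide whether the numbers pair the samples. Arrays of the 2 groups that shared a slide gave 0.0645, 0.0172 and 0.0822 on slide 1, 0.139 on slide 2 and 0.228 on slide 3. Those on different slides gave -0.120 to 0.0936. With the replicate number as a block, 3898 genes and features passed the unadjusted threshold, against 3400 without it, and 1 member did, Itga1, with a limma adjusted p of 0.383, against 0 without the block. Itgb3, Itgb2, Itgb8, Itga4 and Itga2b kept their signs under all alternatives run. Signal over background limits Itga2, Itga7, Itgad, Itgax, Ret, Gdnf and Col17a1, which were above background on only some arrays. The same holds for the second probes of Itgav and Itgb6.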

Other observations

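Among the 6 hemidesmosome genes and the laminin chains, Col17a1, the collagen of hemidesmosomes, and Lamb3 and Lama3, chains of the laminin they bind, were named after their values were seen, for a pattern like that of Itgb4. Col17a1 read -0.08, -2.83, -4.11, -4.79 and -2.11 in wild type and -6.91, 1.13 and -4.07 in the labelled nulls, and it was above background on 2 of those 3. Lamb3 read -0.81, -3.43, -5.20, -4.60 and -1.84 against -3.80, -0.44 and -3.80, and Lama3 read 1.44, -0.96, -0.68, -1.82 and 0.14 against -1.30, 1.38 and -2.06. Within their groups all 3 were highest in wild-type replicate 1 and in labelled-null replicate 2, as were Krt5, Krt14 and Itgb4. These 2 arrays lie on different slides and in different groups. The mean of the 11 epithelial markers was also highest of its group in each of them, at 0.91 and 0.44. The order was therefore not particular to hemidesmosome genes. Other genes of the same structures shared this order only in part or not at all. Dst was 0.62 in wild-type replicate 1, the lowest of that group, and highest in wild-type replicate 5, at 1.88. Plec was highest of the labelled nulls in replicate 2, at 1.01, but highest of wild type in replicate 2, at 2.14. Itga6 was highest of wild type in replicate 1, at 2.96, but lowest of the labelled nulls in replicate 2, at 1.65. The differences of Col17a1, Lamb3 and Lama3 between the groups were -0.49, 0.49 and -0.28, with limma adjusted p-values of 0.959, 0.937 and 0.957.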
